A study of Caenorhabditis elegans with 15 samples.

Results

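The genes described here encode lipases, acyl-CoA synthetases and the enzymes of fatty acid beta-oxidation in the nematode Caenorhabditis elegans. Members were the genes whose name in the deposited table belongs to the lips, lipl, fil, atgl, hosl, acs, acdh, acox, ech, cpt, acaa, hacd or kat families, together with *daf-22*, *dhs-28* and *maoc-1*. This gave 77 of 16259 genes. They are 16 genes of the lips and fil lipase families, of which *lips-16* is a pseudogene in the annotation used here, 7 lysosomal-type lipases (lipl), the triglyceride lipase gene *hosl-1*, 19 acyl-CoA synthetases (acs), 6 carnitine palmitoyltransferases (cpt), 13 acyl-CoA dehydrogenases (acdh), 9 genes of the enoyl-CoA hydratase family (ech), *hacd-1* and *kat-1*, the acyl-CoA oxidase *acox-1*, and the 3 genes *maoc-1*, *dhs-28* and *daf-22*. A further 10 genes bear names of these families only in the current annotation, *atgl-1* and most acox genes among them. The table lists these under sequence names, so they were kept apart and are given at the end.

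Poly-A RNA was sequenced from whole L2 larvae grown on plates with Escherichia coli, with 5 libraries each from *sma-6* mutants, from *sma-3* mutants and from the wild-type strain N2 (WT). SMA-6 is a type I receptor of DBL-1, a bone morphogenetic protein that sets body size, and SMA-3 is one of the Smad proteins that act downstream of it. The alleles are not given in the sources used here, and nothing in the labels says whether libraries of a genotype came from separate cultures, so p-values measure only the spread between these libraries. Only pooled poly-A RNA of the whole animal was measured, so fewer cells of a type and less RNA per cell cannot be told apart. Total counts per library were between 16467702 and 48292350, and the members took between 0.827% and 0.991% of them. The transcript of the mutated gene was reduced in each library of the mutant relative to all WT libraries (*sma-6* at 8.83 to 9.75 CPM in *sma-6* mutants and 37.2 to 47.7 CPM in WT, *sma-3* at 8.85 to 10.8 CPM in *sma-3* mutants and 22.6 to 32.5 CPM in WT). Wild-type replicate 5 stood apart: its root mean square log2 distance was 0.359 to the *sma-3* libraries and 0.377 to the other WT libraries. The sample-sheet numbers run in separate blocks for the genotypes, so library order and genotype cannot be told apart.

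Fat is stored in C. elegans mainly as triglyceride in the intestine and the epidermis. Lipases release fatty acids from it, acyl-CoA synthetases couple them to coenzyme A, and carnitine palmitoyltransferases carry the long chains into mitochondria. There each cycle of beta-oxidation uses an acyl-CoA dehydrogenase, an enoyl-CoA hydratase, a 3-hydroxyacyl-CoA dehydrogenase and a thiolase. Peroxisomes run a parallel cycle with acyl-CoA oxidases, MAOC-1, DHS-28 and DAF-22, which in worms also shortens the side chains of the ascaroside pheromones. DBL-1 signalling is known to affect fat stores as well as body size.

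Of the 77 members 68 passed the filter on low counts and were tested (counts of each library fitted together for all 13720 genes that passed, edgeR quasi-likelihood test, Benjamini-Hochberg adjustment over those genes, called at an adjusted p under 0.05). Levels are CPM, each count relative to its library's total after scaling by TMM factors, and means carry the SD over the 5 libraries. The 9 members not tested had at most 14 counts in any library, apart from *fil-2* with 37 counts in wild-type replicate 2. They were *acdh-5*, *acdh-8*, *acs-6*, *acs-10*, *cpt-3*, *fil-2*, *lips-8*, *lips-12* and *lips-13*. Of these, *cpt-3* had 4, 4, 14, 5 and 9 counts in *sma-6* libraries, 4, 0, 1, 1 and 0 counts in *sma-3* libraries and 0, 4, 1, 3 and 1 counts in WT libraries.

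Among the members tested, 40 were called in at least 1 of the 3 comparisons and 28 in none. In *sma-6* mutants 8 of 68 were called, 5 lower and 3 higher, where 6.50% of all genes were called, 3.51% lower and 3.00% higher. Libraries did not overlap between *sma-6* mutants and WT in 8 members, against 8.24% of all genes. In *sma-3* mutants 21 of 68 members were called, 18 lower and 3 higher, where 14.6% of all genes tested were called, 10.2% lower and 4.40% higher. Libraries did not overlap between *sma-3* mutants and WT in 15 members, against 9.71% of all genes. Between the mutants 32 of 68 were called, 22 higher and 10 lower in *sma-6* mutants relative to *sma-3*, where 23.1% of all genes were called, 12.7% higher and 10.3% lower. Libraries of the mutants did not overlap in 24 members, against 15.9% of all genes. The median log2 fold change of the tested members was 0.02 in *sma-6* mutants and -0.13 in *sma-3* mutants against WT, and 0.14 in *sma-6* against *sma-3* mutants, while the medians of all genes tested were 0.01 in each. Most member changes were small, with a median absolute log2 fold change of 0.35 among the members called in *sma-3* mutants.

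**Figure D1:**
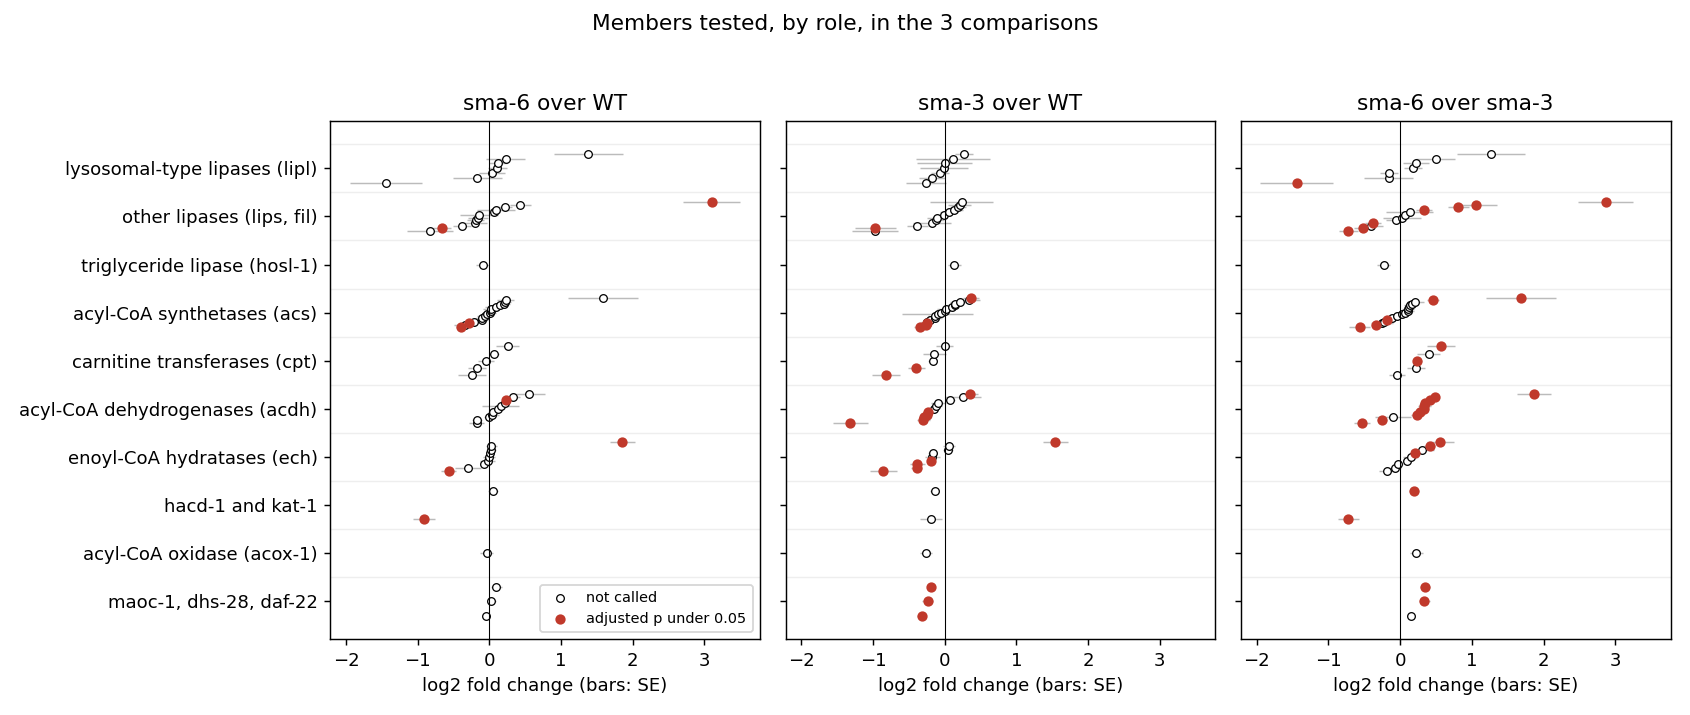
Log2 fold changes of the 68 members tested (x axis, bars are standard errors), by role (rows), in *sma-6* mutants over WT, *sma-3* mutants over WT and *sma-6* over *sma-3* mutants. Red points passed an edgeR adjusted p of 0.05 and open points did not. In the *sma-3* panel 18 red points lie left of 0 and 3 right of it, and in the *sma-6* over *sma-3* panel 22 lie right of 0 and 10 left.

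By role, enzymes of beta-oxidation and carnitine transfer gave 16 of the 21 calls in *sma-3* mutants. Of 31 tested enzymes of beta-oxidation and carnitine transfer 14 were lower and 2 higher in *sma-3* mutants, with a median log2 fold change of -0.19. These were 45.2% and 6.45% of them, where 10.2% of all genes tested were lower and 4.40% higher. Of 17 acyl-CoA synthetases tested 3 were lower (17.65%) and 1 higher (5.88%). Of 20 genes of the lipase families tested, *lips-16* included, 1 was lower (5%) and 0 were higher, with a median of -0.01. In *sma-6* mutants 2 of these 20 (10%) and 4 of the 31 enzymes (12.9%) were called, where 6.50% of all genes were. Between the mutants 8 of the 20 (40%) were called, 4 higher and 4 lower in *sma-6*. Of the 31 enzymes 19 (61.3%) were called there, 16 higher and 3 lower, where 23.1% of all genes were called. The *sma-3* counts against WT rest on small differences. Scaled by library totals alone, 9 members were lower and 4 higher in *sma-3* mutants, so that higher members were 30.8% of the calls in place of 14.3%, and over all genes 65.9% in place of 30.2%. Under that scaling 15 members were higher and 11 lower in *sma-6* mutants relative to *sma-3*. Leaving out any 1 of *sma-3* replicates 2, 4 and 9 or wild-type replicates 1, 2, 3 and 4 gave 9 to 11 lower calls. Wild-type replicate 5 lay within the range of the *sma-3* libraries in 8 of the 21 members called (*acdh-6*, *acdh-9*, *acdh-13*, *acs-19*, *dhs-28*, *ech-7*, *fil-1* and *maoc-1*), and just below it in *cpt-5*. Without that library all 21 calls were kept and 9 were added, giving 22 lower and 8 higher.

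Markers of tissues moved with genotype too, and their part in the member changes was not tested. Of all genes tested 10.2% were lower and 4.40% higher in *sma-3* mutants, and 3.51% and 3.00% in *sma-6* mutants. In *sma-6* mutants relative to *sma-3*, 10.3% were lower and 12.7% higher. Of 9 intestine markers 6 were lower and 0 higher in *sma-3* mutants, and none was at 0. In *sma-6* mutants 3 were lower and 0 higher. Their summed level was 2722 to 3092 CPM in *sma-6* mutants, 2287 to 2754 CPM in *sma-3* mutants and 2917 to 3605 CPM in WT. The actin gene *act-5* of the intestinal brush border was at 977 CPM on average in *sma-3* mutants, against 1408 CPM in WT, and changed by -0.53 in *sma-3* mutants on the log2 scale (edgeR adjusted p = 0.00327). Of 6 germline markers 4 were higher and 0 lower in *sma-6* mutants relative to *sma-3*, at sums of 257 to 389 CPM and 209 to 244 CPM, with WT at 191 to 306 CPM. In the same comparison 3 of 9 intestine markers were higher and 1 lower, 2 of 5 muscle markers were higher and 1 lower, and 2 of 6 epidermis and 2 of 7 neuron markers were lower and 0 higher. Of 5 muscle markers 2 were higher and 0 lower in *sma-6* mutants and 1 higher and 0 lower in *sma-3* mutants. Muscle markers summed to 12815 to 15418 CPM in *sma-6* mutants, 11405 to 12809 CPM in *sma-3* mutants and 9788 to 12510 CPM in WT. Of 6 epidermis markers tested 1 was lower and 0 higher in *sma-6* mutants and 0 were called in *sma-3* mutants, and *bli-1*, the seventh, did not pass the filter. With *bli-1* the epidermis markers summed to 2247 to 2803 CPM in *sma-6* mutants, 3279 to 4035 CPM in *sma-3* mutants and 2592 to 4408 CPM in WT. Of 7 neuron markers 0 were called in *sma-6* mutants and 1 was higher and 0 lower in *sma-3* mutants. Neuron markers summed to 892 to 1069 CPM in *sma-6* mutants, 993 to 1170 CPM in *sma-3* mutants and 962 to 1049 CPM in WT.

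Lipases are the entry point of fat breakdown, and among them 1 member stood far from the rest. *lips-11* encodes a predicted lipase of the lips family and lies at chromosome II, 1108841 to 1111001, minus strand, in WBcel235. It was at 56.3, 15.03, 19.2, 21.4 and 13.8 CPM in *sma-6* libraries, 3.77, 1.99, 6.00, 2.44 and 2.67 CPM in *sma-3* libraries and 3.15, 1.98, 1.93, 4.36 and 3.75 CPM in WT libraries. Every *sma-6* library lay above every library of the other genotypes, and replicate 1 lay far above the other *sma-6* libraries. *lips-11* thus differed from WT in *sma-6* mutants by a log2 fold change of 3.10 (standard error 0.396, edgeR adjusted p = 7.54e-05), and 2.87 (standard error 0.384, edgeR adjusted p = 0.000120) against *sma-3* mutants. Against WT, *sma-3* libraries overlapped those of WT (log2 fold change 0.23, edgeR adjusted p = 0.764). The paralog *lips-12* lies 1182 bases from it and *lips-13* a further 1372 bases on, and they had at most 10 and 7 counts in a library. The 10 counts of *lips-12* were in *sma-6* replicate 1, the library with the highest *lips-11*.

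*lips-17* moved the other way in the same mutant. It was at 16.4, 17.8, 11.3, 18.2 and 18.6 CPM in *sma-6* libraries, 22.8, 27.2, 25.6, 34.9 and 25.5 CPM in *sma-3* libraries and 24.96, 24.1, 31.7, 25.8 and 23.9 CPM in WT libraries, so the *sma-6* libraries lay below all others. In *sma-6* mutants the log2 fold change of *lips-17* over WT was -0.66 (standard error 0.132, edgeR adjusted p = 0.00483), and -0.72 (standard error 0.131, edgeR adjusted p = 0.00125) against *sma-3* mutants. *fil-1*, a lipase known to be induced by fasting, was at 2.59, 4.96, 3.36, 6.12 and 3.14 CPM in *sma-6* libraries, 1.89, 3.16, 1.39, 1.95 and 1.48 CPM in *sma-3* libraries and 4.15, 4.03, 4.29, 4.68 and 1.76 CPM in WT libraries. Wild-type replicate 5 lay among the *sma-3* libraries and apart from its own genotype. For *sma-3* mutants over WT this gave a log2 fold change of -0.97 (standard error 0.283, edgeR adjusted p = 0.0298). Leaving out 1 library at a time lost this in 8 of 15 fits. *fil-1* was 1.06 higher on the log2 scale in *sma-6* mutants relative to *sma-3* (standard error 0.281, edgeR adjusted p = 0.0120).

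In the direct comparison of the mutants 7 of the 12 lips and fil genes tested (58.3%) were called, where 23.1% of all genes were. Of these 4 were higher and 3 lower in *sma-6* mutants. Besides the 3 above, 4 more genes of this family passed, none of which passed against WT. *lips-15* was at 55.4 ± 8.01 CPM in *sma-6* and 31.5 ± 4.49 CPM in *sma-3* mutants, with WT at 41.1 ± 9.99 CPM (log2 difference 0.81, edgeR adjusted p = 0.00126). Its neighbour *lips-16*, the pseudogene, differed by 0.33 (edgeR adjusted p = 0.0332), and this call was lost in 7 of the 15 leave-one-out fits and with library totals. *lips-3* and *lips-7* were lower in *sma-6* mutants relative to *sma-3*, with log2 differences of -0.51 and -0.38 (edgeR adjusted p = 0.00682 and 0.0263), and the *lips-7* call was lost without *sma-6* replicate 1, 2 or 3. The wild-type libraries overlapped both mutants in *lips-15*, with replicate 5 at 25.6 CPM and the others at 39.9 to 50.5 CPM. In *lips-3* replicate 5 was at 109 CPM and the other WT libraries were at 63.2 to 79.97 CPM. *lips-6*, named after its values were seen, was not called in any comparison. It was at 11.5 CPM per kb of exon in *sma-6* mutants, 10.3 in *sma-3* mutants and 20.6 in WT. In *sma-3* mutants its log2 fold change was -0.97 (edgeR adjusted p = 0.0514), and it passed without wild-type replicate 1 or *sma-3* replicate 5.

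The lysosomal-type lipases, homologs of lysosomal acid lipase, gave 0 calls against WT in either mutant with edgeR, limma-voom or DESeq2. Of all genes 6.50% were called in *sma-6* and 14.6% in *sma-3* mutants, so 0 of 7 genes is not far from those shares. Some leave-one-out fits called *lipl-2* or *lipl-3* in *sma-6* mutants and *lipl-7* in *sma-3* mutants. Of the 7 lysosomal-type lipases 2 in *sma-6* and 1 in *sma-3* mutants had an unadjusted edgeR p under 0.05. *lipl-5* was their most abundant member, at 75.1 CPM per kb of exon in *sma-6* mutants, 64.6 in *sma-3* mutants and 73.00 in WT. *lipl-4*, an intestinal lipase whose overexpression is known to extend lifespan, was low, at 0.799 ± 0.371 CPM in *sma-6* mutants, 0.873 ± 0.239 CPM in *sma-3* mutants and 0.886 ± 0.411 CPM in WT. *lipl-3*, named after its values were seen, passed between the mutants alone, at 0.223 ± 0.138 CPM in *sma-6* and 0.629 ± 0.242 CPM in *sma-3* mutants (log2 difference -1.44, edgeR adjusted p = 0.0494), while 11 of the 15 leave-one-out fits lacked that call. *hosl-1*, the homolog of hormone-sensitive lipase, was at 40.7 ± 4.16 CPM in *sma-6* mutants, 47.6 ± 4.49 CPM in *sma-3* mutants and 43.3 ± 5.66 CPM in WT and passed in no comparison.

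**Figure D2:**
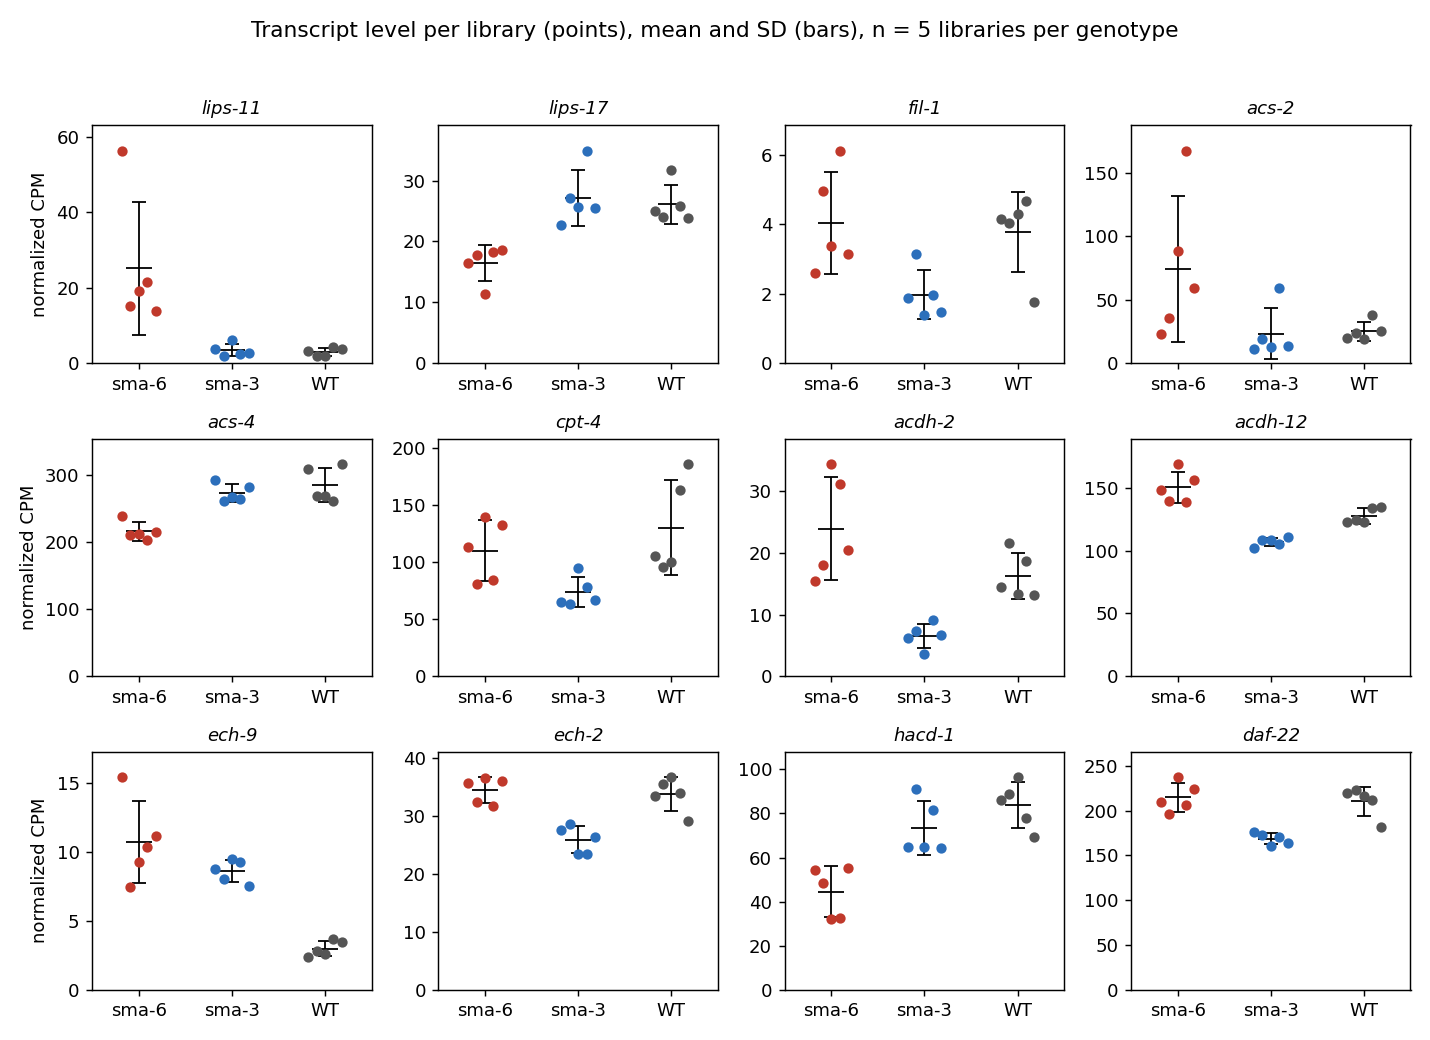
Normalized CPM (y axis) of 12 members in each library (points) of *sma-6* mutants, *sma-3* mutants and WT, with mean and SD as bars. The *lips-11* points of *sma-6* mutants lie between 13.8 and 56.3 CPM, above all others, and the *acdh-2* points of *sma-3* mutants lie between 3.70 and 9.09 CPM, below all others.

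Acyl-CoA synthetases activate fatty acids for every later use. *acs-4*, a long-chain acyl-CoA synthetase, was at 239, 210.0, 212, 203 and 215 CPM in *sma-6* libraries, 292, 261, 267, 264 and 282 CPM in *sma-3* libraries and 308, 269, 269, 261 and 316 CPM in WT libraries. The *sma-6* libraries lay below all libraries of both other genotypes. Its fitted log2 fold change over WT in *sma-6* mutants was -0.40 (standard error 0.065, edgeR adjusted p = 0.000930), and -0.34 (standard error 0.065, edgeR adjusted p = 0.00174) against *sma-3* mutants. *acs-19*, an acetyl-CoA synthetase homolog, was the one synthetase lower in both mutants, at 216 ± 10.5 CPM in *sma-6* mutants, 223 ± 25.3 CPM in *sma-3* mutants and 264 ± 15.6 CPM in WT. Its log2 fold changes were -0.29 in *sma-6* and -0.24 in *sma-3* mutants, with edgeR adjusted p = 0.0196 and 0.0302. The *sma-6* call was lost without wild-type replicate 3, and the *sma-3* call in 7 of the 15 leave-one-out fits.

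In *sma-3* mutants *acs-7*, which activates side chains of ascarosides in peroxisomes, was at 45.9 ± 4.39 CPM, against 58.5 ± 4.19 CPM in WT. Against WT the log2 fold change in *sma-3* mutants was -0.35 (standard error 0.079, edgeR adjusted p = 0.00839). The long-chain synthetase *acs-5*, the most abundant synthetase per length in WT at 128 CPM per kb, changed by -0.27 (edgeR adjusted p = 0.0310), and *acs-21*, at 8.92 ± 1.13 CPM against 6.91 ± 0.822 CPM in WT, rose by 0.37 (edgeR adjusted p = 0.0309). The *acs-5* call was lost in 6 and the *acs-21* call in 5 of those fits. Between the mutants *acs-14* was higher in *sma-6* by 0.46 (edgeR adjusted p = 0.00125). The fatty acid transporter homolog *acs-20*, known for its role in the cuticle barrier, differed by -0.56 and *acs-16* by -0.18 (edgeR adjusted p = 0.0112 and 0.0261). The *acs-16* call was lost without *sma-3* replicate 4 or *sma-6* replicate 2 or 3. *acs-22*, a paralog of *acs-20*, was at 106 ± 17.6 CPM in *sma-6* mutants, 102 ± 10.05 CPM in *sma-3* mutants and 111 ± 11.8 CPM in WT, with no call.

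*acs-2*, a mitochondrial acyl-CoA synthetase known to be induced by fasting through NHR-49, varied widely between libraries of each genotype. It was at 22.8, 35.2, 88.1, 167 and 58.97 CPM in *sma-6* libraries, 11.4, 19.1, 12.96, 59.2 and 13.4 CPM in *sma-3* libraries and 19.8, 23.6, 18.7, 37.5 and 25.4 CPM in WT libraries. The genotypes overlapped, since the lowest *sma-6* library lay under the highest of both others. The log2 difference was 1.58 between *sma-6* mutants and WT (standard error 0.489, edgeR adjusted p = 0.0616), which did not pass, and 1.68 between the mutants (standard error 0.490, edgeR adjusted p = 0.0198). That call was lost without *sma-3* replicate 2, 4 or 9 and without *sma-6* replicate 4. The difference between *sma-6* mutants and WT passed without *sma-3* replicate 5 or *sma-6* replicate 1. It also passed with only the genotypes compared in the fit.

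The carnitine palmitoyltransferase gene *cpt-1* and *atgl-1* (adipose triglyceride lipase homolog, listed as *C05D11.7*) had their highest value in the same libraries as *acs-2*, a pattern chosen after the values were seen. *cpt-1* was at 184, 179, 223, 359 and 210.4 CPM in *sma-6* libraries, 159, 159.6, 183, 218 and 157 CPM in *sma-3* libraries and 175, 162, 186, 226 and 220.1 CPM in WT libraries. *C05D11.7* was at 64.1, 90.99, 89.6, 134 and 60.4 CPM in *sma-6* libraries, 60.05, 83.6, 76.4, 102 and 71.02 CPM in *sma-3* libraries and 74.1, 75.1, 72.9, 88.00 and 84.3 CPM in WT libraries. In each gene the top library was replicate 4 of *sma-6*, replicate 5 of *sma-3* and replicate 4 of WT. Besides *acs-2* and *cpt-1*, *acs-11* and *acs-17* were the members with that order of top libraries. Neither *cpt-1* nor *C05D11.7* was called in any comparison.

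**Figure D3:**
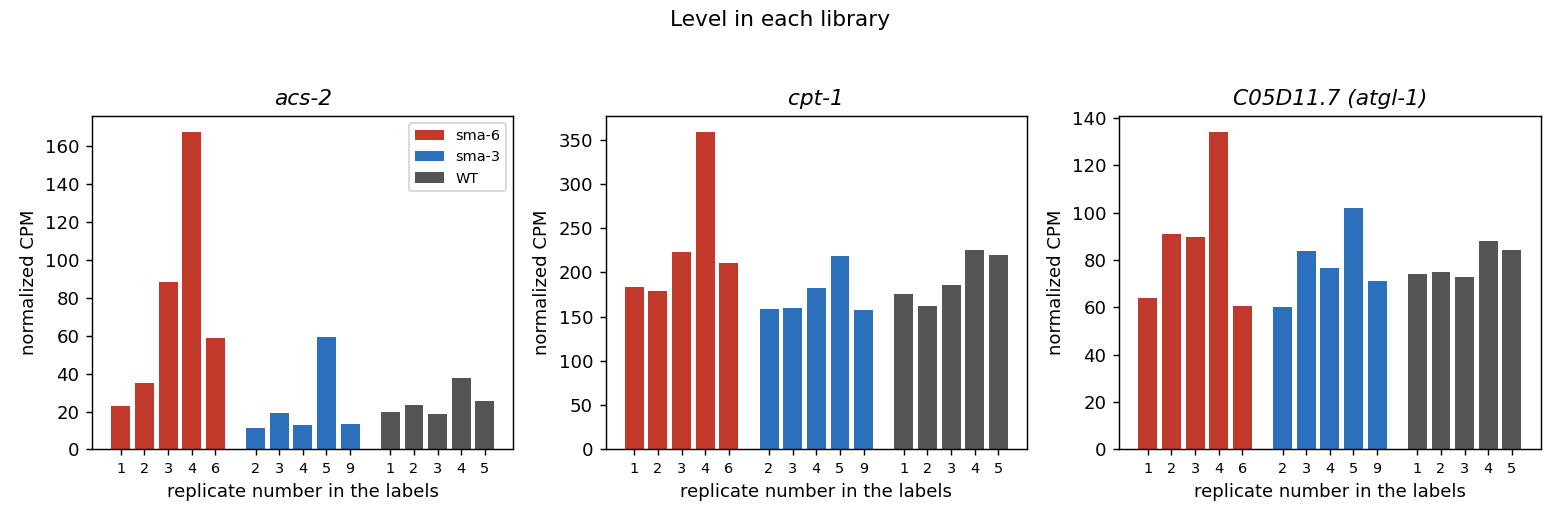
Normalized CPM (y axis, from 0) of *acs-2*, *cpt-1* and *C05D11.7* in every library, with the replicate numbers of the labels on the x axis and 1 colour per genotype. *sma-6* replicate 4 is the tallest bar in all 3 panels, at 167 CPM for *acs-2* and 359 CPM for *cpt-1*.

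Of 5 carnitine palmitoyltransferases tested 0 were called in *sma-6* mutants, also by unadjusted edgeR p, limma-voom and DESeq2. Of all genes 6.50% were called there with edgeR. In *sma-3* mutants 2 of the 5 were lower, where 10.2% of all genes were. *cpt-4* was at 65.2, 63.5, 94.4, 78.5 and 66.4 CPM in *sma-3* libraries, against 105, 95.8, 99.7, 163 and 186 CPM in WT libraries. The genotypes did not overlap, and wild-type replicates 4 and 5 were well above the other WT libraries. *cpt-4* thus differed from WT in *sma-3* mutants by a log2 fold change of -0.81 (standard error 0.194, edgeR adjusted p = 0.0110). *cpt-5* changed by -0.39 there (edgeR adjusted p = 0.0389), which was lost in 8 of the 15 leave-one-out fits. *cpt-2*, which acts at the inner mitochondrial membrane, was at 181 ± 16.8 CPM in *sma-6* mutants, 153 ± 8.03 CPM in *sma-3* mutants and 172 ± 5.25 CPM in WT. It passed between the mutants (log2 difference 0.24, edgeR adjusted p = 0.00990), as did *cpt-4* (0.57, edgeR adjusted p = 0.0396). Both calls were lost with library totals as the only scaling, and that of *cpt-4* also with DESeq2 and in 7 of the 15 leave-one-out fits.

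Acyl-CoA dehydrogenases take the first step of the mitochondrial cycle. Of 11 tested, 1 was higher and 0 lower in *sma-6* mutants, where 3.00% and 3.51% of all genes were. In *sma-3* mutants 1 was higher and 5 were lower, where 4.40% and 10.2% of all genes were. Between the mutants 8 were higher and 2 lower in *sma-6*, where 12.7% and 10.3% of all genes were. The largest fall of any member in *sma-3* mutants was in *acdh-2*, a relative of the propionate-responsive *acdh-1*. It was at 15.5, 18.1, 34.4, 31.2 and 20.5 CPM in *sma-6* libraries, 6.22, 7.31, 3.70, 9.09 and 6.69 CPM in *sma-3* libraries and 14.4, 21.6, 13.3, 18.8 and 13.2 CPM in WT libraries. No *sma-3* library reached the level of any other library. In *sma-3* mutants the log2 fold change of *acdh-2* over WT was -1.32 (standard error 0.241, edgeR adjusted p = 0.00257), and *sma-6* mutants differed from *sma-3* mutants by 1.87 (standard error 0.240, edgeR adjusted p = 8.78e-05). In *sma-6* mutants the difference from WT did not pass (log2 fold change 0.55, edgeR adjusted p = 0.161).

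*acdh-12*, the homolog of very long-chain acyl-CoA dehydrogenase, was the single member called in opposite directions in the mutants. It was at 148, 139.5, 169, 139 and 156 CPM in *sma-6* libraries, 102, 108, 108, 105 and 111 CPM in *sma-3* libraries and 123, 124, 122, 134 and 135 CPM in WT libraries, and no library of one genotype overlapped another genotype. For *sma-6* mutants over WT this gave a log2 fold change of 0.24 (standard error 0.058, edgeR adjusted p = 0.0194). Its fitted log2 fold change over WT in *sma-3* mutants was -0.25 (standard error 0.059, edgeR adjusted p = 0.00955). The log2 difference between the mutants was 0.49 (standard error 0.059, edgeR adjusted p = 4.17e-05), which held in each alternative and in each fit without a library. The *sma-3* call against WT was lost with library totals as the only scaling, and the *sma-6* call without wild-type replicate 1 or 3 or *sma-6* replicate 6. That *sma-6* call was also lost in the 13 libraries whose replicate number recurs, with or without fitting that number.

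*acdh-3* was at 121, 118, 112, 103 and 107 CPM in *sma-3* libraries, against 143, 141, 151, 133 and 122 CPM in WT libraries, with no overlap. Against WT the log2 fold change in *sma-3* mutants was -0.29 (standard error 0.063, edgeR adjusted p = 0.00662). Further falls in *sma-3* mutants were those of *acdh-13* (-0.30) and *acdh-9* (-0.23), with edgeR adjusted p = 0.0415 and 0.0412, and the calls were lost in 12 and 11 of the 15 leave-one-out fits. *acdh-6* rose there by 0.36 (edgeR adjusted p = 0.0330) and was at 31.3 ± 2.66 CPM, against 24.6 ± 5.08 CPM in WT. Wild-type replicate 5 was at 32.5 CPM, among the *sma-3* libraries, and the call was lost without wild-type replicate 1, 2 or 4 or *sma-3* replicate 9. Between the mutants *acdh-10* and *acdh-7*, adjacent medium-chain dehydrogenase homologs whose genes lie 114 bases apart on the X chromosome, were higher in *sma-6* by 0.33 and 0.42 (edgeR adjusted p = 0.00477 and 0.00732). *acdh-11*, which sequesters medium-chain fatty acids during adaptation to heat, was higher by 0.28 (edgeR adjusted p = 0.00314). In *acdh-3*, *acdh-13* and *acdh-9* the differences were 0.34, 0.34 and 0.23 (edgeR adjusted p = 0.00130, 0.0157 and 0.0313), and the *acdh-9* call was lost in 8 of the 15 leave-one-out fits and with library totals.

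*acdh-1*, the first enzyme of the propionate shunt, had the highest level per length of all members, at 1521 CPM per kb in *sma-6* mutants, 1806 in *sma-3* mutants and 1716 in WT. It passed between the mutants alone, lower in *sma-6* mutants relative to *sma-3* (log2 difference -0.25, edgeR adjusted p = 0.0147). *acdh-6* was also lower in *sma-6* mutants relative to *sma-3*, at a log2 difference of -0.53 (edgeR adjusted p = 0.00231).

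**Figure D4:**
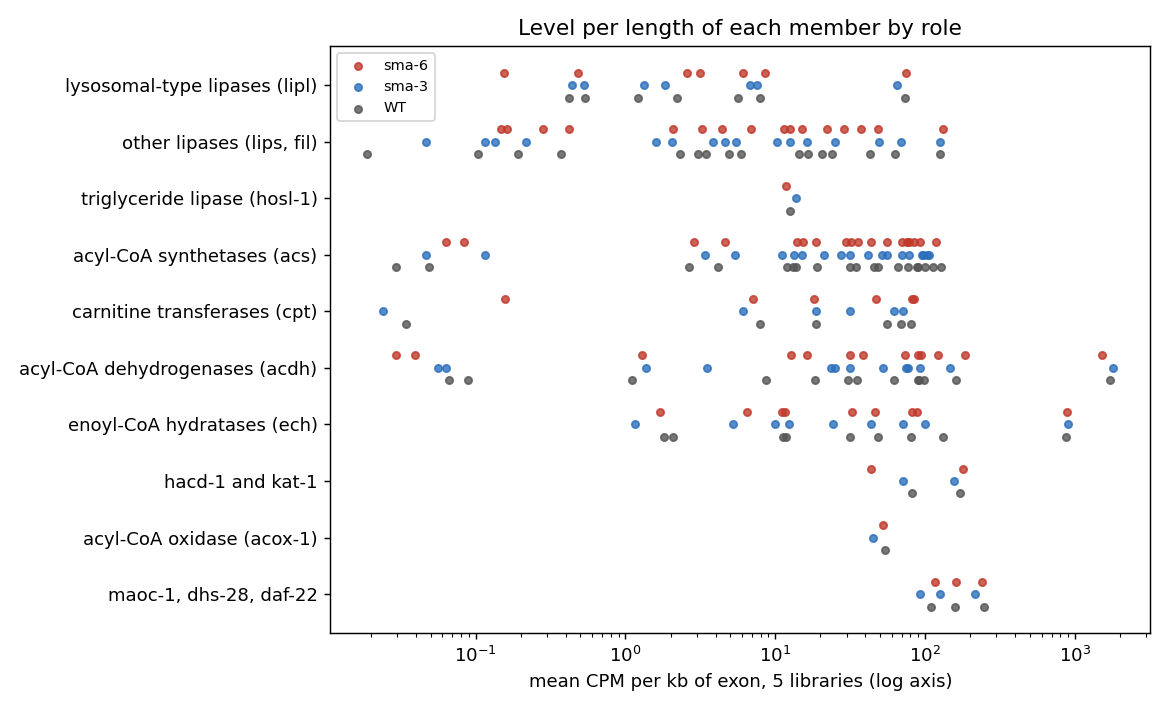
Mean CPM per kb of exon (x axis, log scale) of each of the 77 members, by role (rows), in *sma-6* mutants, *sma-3* mutants and WT (colours). *acdh-1* is the rightmost point of its row, at 1716 CPM per kb in WT, and *ech-6* that of the hydratase row, at 877.

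Enoyl-CoA hydratases act next in the cycle, and the family holds enzymes of both mitochondria and peroxisomes. The one member higher in both mutants was *ech-9* (chromosome IV, 10233310 to 10235329, minus strand). It was at 15.4, 7.45, 9.22, 10.3 and 11.1 CPM in *sma-6* libraries, 8.77, 8.01, 9.46, 9.22 and 7.54 CPM in *sma-3* libraries and 2.38, 2.77, 2.61, 3.66 and 3.46 CPM in WT libraries. Both mutants lay above WT in every library. *ech-9* thus differed from WT in *sma-6* mutants by a log2 fold change of 1.85 (standard error 0.172, edgeR adjusted p = 1.68e-06). In *sma-3* mutants the log2 fold change of *ech-9* over WT was 1.54 (standard error 0.173, edgeR adjusted p = 4.67e-05). The mutants did not pass a test against each other (log2 difference 0.31, standard error 0.156, edgeR adjusted p = 0.160). Both comparisons use the same WT libraries. Its paralog *ech-8*, 1296 bases away, was at 16.97 ± 1.51 CPM in *sma-6* mutants, 17.8 ± 1.65 CPM in *sma-3* mutants and 17.1 ± 1.24 CPM in WT. The next member on that strand, *lipl-7*, was at 7.91 ± 0.386 CPM in *sma-6* mutants, 8.78 ± 1.05 CPM in *sma-3* mutants and 7.31 ± 1.48 CPM in WT, and neither neighbour was called.

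*ech-7* was lower in both mutants, at 78.6, 68.8, 65.1, 53.7 and 76.8 CPM in *sma-6* libraries, 89.3, 88.3, 75.9, 71.9 and 64.03 CPM in *sma-3* libraries and 106, 107, 109, 97.2 and 87.6 CPM in WT libraries. The *sma-6* libraries lay below all WT libraries, while *sma-3* replicates 2 and 3 lay slightly above wild-type replicate 5. For *sma-6* mutants over WT this gave a log2 fold change of -0.57 (standard error 0.105, edgeR adjusted p = 0.00270). In *sma-3* mutants it changed by -0.38 (edgeR adjusted p = 0.0216), and 6 of the 15 leave-one-out fits lost that call. The members *ech-1*, *ech-2* and *ech-4* passed as lower in *sma-3* mutants and did not pass in *sma-6* mutants. *ech-1*, a homolog of the mitochondrial trifunctional enzyme's alpha subunit, was at 2.94 ± 0.650 CPM in *sma-3* mutants and 5.21 ± 1.51 CPM in WT (log2 fold change -0.86, edgeR adjusted p = 0.00726). *ech-2* was at 27.7, 28.6, 23.5, 23.5 and 26.4 CPM in *sma-3* libraries, against 33.6, 35.7, 36.7, 34.1 and 29.2 CPM in WT libraries, with no overlap. Its fitted log2 fold change over WT in *sma-3* mutants was -0.39 (standard error 0.076, edgeR adjusted p = 0.00396). *ech-4* changed by -0.19 (edgeR adjusted p = 0.0140), with no overlap between libraries. These 3 also passed between the mutants, higher in *sma-6* by 0.56 for *ech-1*, 0.42 for *ech-2* and 0.20 for *ech-4* (edgeR adjusted p = 0.0418, 0.00126 and 0.00587). Of these, the *ech-1* call was lost in 8 of the 15 leave-one-out fits. Scaling by library totals alone lost it too, along with both *ech-4* calls. *ech-6*, the short-chain enoyl-CoA hydratase and most abundant of the family, was at 904 ± 22.5 CPM in *sma-6* mutants, 920.1 ± 67.2 CPM in *sma-3* mutants and 891 ± 75.2 CPM in WT, with no call.

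The last mitochondrial steps were covered by 2 members. *hacd-1*, a 3-hydroxyacyl-CoA dehydrogenase, was at 54.2, 48.5, 32.1, 32.4 and 55.3 CPM in *sma-6* libraries, 64.8, 91.1, 64.9, 81.7 and 64.5 CPM in *sma-3* libraries and 86.1, 88.8, 96.4, 77.96 and 69.2 CPM in WT libraries. The *sma-6* libraries lay below all others. Against WT the log2 fold change in *sma-6* mutants was -0.91 (standard error 0.152, edgeR adjusted p = 0.00102), and -0.72 (standard error 0.152, edgeR adjusted p = 0.00304) against *sma-3* mutants. *kat-1*, the mitochondrial thiolase whose loss is known to raise fat stores, was at 238 ± 11.99 CPM in *sma-6* mutants, 207 ± 17.5 CPM in *sma-3* mutants and 228 ± 18.4 CPM in WT. It was called between the mutants alone (0.20 on the log2 scale, edgeR adjusted p = 0.0441), and 12 of the 15 leave-one-out fits lacked that call.

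All 3 genes of the later peroxisomal steps were lower in *sma-3* mutants, *daf-22* by 1.25-fold, *maoc-1* by 1.18-fold and *dhs-28* by 1.14-fold. Of all genes 10.2% were lower there. With library totals as the only scaling the *maoc-1* and *dhs-28* calls were lost. *daf-22*, the thiolase, was at 209.7, 196, 237, 206 and 224 CPM in *sma-6* libraries, 176, 173, 161, 170.3 and 164 CPM in *sma-3* libraries and 219, 223, 216, 212 and 182 CPM in WT libraries. The *sma-3* libraries lay below all others, with wild-type replicate 5 the nearest. *daf-22* thus differed from WT in *sma-3* mutants by a log2 fold change of -0.32 (standard error 0.064, edgeR adjusted p = 0.00470), and *sma-6* mutants differed from *sma-3* mutants by 0.35 (standard error 0.064, edgeR adjusted p = 0.00130). *maoc-1*, the peroxisomal enoyl-CoA hydratase, was at 124 ± 7.77 CPM in *sma-6* mutants, 98.6 ± 10.1 CPM in *sma-3* mutants and 116 ± 11.1 CPM in WT. *dhs-28*, the 3-hydroxyacyl-CoA dehydrogenase, was at 337 ± 10.3 CPM in *sma-6* mutants, 304 ± 14.7 CPM in *sma-3* mutants and 347 ± 19.9 CPM in WT. In *sma-3* mutants they changed by -0.24 and -0.19 (edgeR adjusted p = 0.0478 and 0.0234), and these calls were lost in 11 and 7 of the 15 leave-one-out fits. In *sma-6* mutants the log2 fold changes were 0.03 for *daf-22*, 0.10 for *maoc-1* and -0.04 for *dhs-28*, and none passed. Between the mutants *maoc-1* differed by 0.33 (edgeR adjusted p = 0.00539), and *dhs-28* by 0.15, which did not pass (edgeR adjusted p = 0.0542). The oxidase *acox-1*, which starts this cycle, was at 132 ± 17.5 CPM in *sma-6* mutants, 113 ± 5.47 CPM in *sma-3* mutants and 135 ± 14.8 CPM in WT, with a log2 fold change of -0.26 in *sma-3* mutants that did not pass with edgeR (adjusted p = 0.0529) and passed with DESeq2. *acdh-12* and *maoc-1* are neighbours on chromosome II, 634 bases apart and transcribed away from each other.

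Most acyl-CoA oxidase genes of the current annotation are listed under sequence names. *F08A8.2* (*acox-1.2*), *F08A8.3* (*acox-1.3*) and *F08A8.4* (*acox-1.4*) follow *acox-1* on chromosome I between 12942280 and 12954003, with 34 to 343 bases between genes, so reads could be shared between these similar sequences. *F08A8.2* was at 95.9, 111, 135, 69.3 and 111 CPM in *sma-6* libraries, 136, 122, 91.5, 78.1 and 111 CPM in *sma-3* libraries and 204, 193, 215, 175 and 204 CPM in WT libraries. Every mutant library lay below every WT library. In *sma-6* mutants the log2 fold change of *F08A8.2* over WT was -0.92 (standard error 0.151, edgeR adjusted p = 0.000898). For *sma-3* mutants over WT this gave a log2 fold change of -0.88 (standard error 0.151, edgeR adjusted p = 0.00155). *F08A8.4* was at 43.5 ± 4.18 CPM in *sma-6* mutants, 37.6 ± 4.09 CPM in *sma-3* mutants and 54.03 ± 4.21 CPM in WT, with log2 fold changes of -0.31 and -0.52 (edgeR adjusted p = 0.0282 and 0.000887). Its *sma-6* call was lost in 5 of the 15 leave-one-out fits and with library totals. The gene between them, *F08A8.3*, was at 8.83 ± 1.61 CPM in *sma-6* mutants, 8.20 ± 0.914 CPM in *sma-3* mutants and 8.14 ± 0.666 CPM in WT and was not called. *T08B2.7* (*ech-1.2*) and *F53A2.7* (*acaa-2*) passed between the mutants alone, higher in *sma-6* by 0.29 and 0.23 (edgeR adjusted p = 0.00252 and 0.0254), and the *F53A2.7* call was lost in 6 of the 15 leave-one-out fits. Of these 10 genes 2 were lower and 0 higher in each mutant against WT. Of all genes 3.51% were lower in *sma-6* and 10.2% in *sma-3* mutants.

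By position, 21 members lay on chromosome II and 21 on chromosome V, 27.3% each, where 16.8% and 22.5% of the annotated genes of the table did.

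Genes around the pathway were taken in 4 lists that hold no member. Of 12 regulators of fat catabolism, such as *nhr-49*, *mdt-15*, *sbp-1* and *hlh-30*, 0 were called in any of the 3 comparisons with edgeR, limma-voom or DESeq2. At an unadjusted edgeR p under 0.05 there was 1 in *sma-6* and 2 in *sma-3* mutants against WT, and 1 between the mutants. Of 12 genes of lipid droplets and triglyceride synthesis 1 was called in *sma-3* mutants, where the droplet protein gene *dhs-3* changed by -0.48 (edgeR adjusted p = 0.000199), and 0 in *sma-6* mutants. The 1 call was 8.33% of the list, where 14.6% of all genes were called in *sma-3* mutants. Between the mutants 3 of the 12 were higher in *sma-6* (25.0%, where 23.1% of all genes were called), *dhs-3* by 0.31, the acetyl-CoA carboxylase *pod-2* by 0.31 and the fatty acid synthase *fasn-1* by 0.38 (edgeR adjusted p = 0.00249, 0.0135 and 0.0149). Of 17 genes of peroxisome import and transport 2 were lower in *sma-3* mutants, the import genes *prx-14* at -0.46 and *prx-13* at -0.31 (edgeR adjusted p = 0.00385 and 0.0493). In *sma-6* mutants 1 was lower, the transporter *pmp-5* at -0.41 (edgeR adjusted p = 0.00103). These were 11.8% and 5.88% of the list, near the 14.6% and 6.50% of all genes called. Between the mutants 4 of the 17 (23.5%) were called, where 23.1% of all genes were. Of these *prx-11* and *prx-14* were higher and *pmp-3* and *pmp-5* lower in *sma-6*.

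In the last list, 14 genes of propionate and branched-chain breakdown, electron transfer and carnitine transport, 4 were lower and 1 higher in *sma-3* mutants, 35.7% of the list where 14.6% of all genes were called. The lower ones were *ivd-1*, the isovaleryl-CoA dehydrogenase, at -0.45, the carnitine carrier homolog *dif-1* at -0.33, *mccc-1* of leucine breakdown at -0.24 and *dbt-1* (listed as *ZK669.4*) at -0.15 (edgeR adjusted p = 0.00660, 0.00282, 0.00726 and 0.0350). *mmaa-1*, of the vitamin B12-dependent propionate pathway, rose by 0.32 (edgeR adjusted p = 0.0157). In *sma-6* mutants the shunt enzyme *hphd-1* (listed as *Y38F1A.6*) was the one gene called, at -0.24 (edgeR adjusted p = 0.0263). This was 7.14% of the list, where 6.50% of all genes were called. Between the mutants 6 were higher and 2 lower in *sma-6*, 57.1% of the list where 23.1% of all genes were called, with *dif-1* the furthest at 0.52 (edgeR adjusted p = 4.07e-05). The others that were higher were *ivd-1*, *mccc-1*, *mce-1*, *pcca-1* and *pccb-1*, and *mmaa-1* and *alh-8* were lower.

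The authors' deposited table holds its own comparison of *sma-3* mutants with N2. At a false discovery rate under 0.05 that table called 21 members, 18 lower and 3 higher, and all 21 were the members called here.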

How the data were processed

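RNA of whole L2 larvae was sequenced from poly-A selected, stranded libraries, per the labels' protocols. The submitters' processing notes name bcl2fastq, STAR 2.5.2b, featureCounts 1.5.2, limma and genome build WBcel235, without their roles; the strand setting used for counting is not given in the sources used here. The authors deposited read counts for 16259 genes, CPM relative to each column total, and, for *sma-3* against N2 alone, log2 fold changes with p-values and false discovery rates. The total counts per library, between 16467702 and 48292350, limit precision mainly for low genes.

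The deposited counts were tested with edgeR 4.0.16 in R 4.3.3 (TMM factors, filterByExpr with a minimum count of 10, quasi-likelihood F-test, 1 model over all 15 libraries, no covariate), adjusted by Benjamini and Hochberg over 13720 genes, threshold 0.05. CPM printed in the text was computed from these counts with TMM factors. Alternatives used RLE factors, library totals, other filters, limma-voom (limma 3.58.1), DESeq2 1.42.0, only the genotypes compared, a replicate block, and fits without each library. Tested on simulated data for *sma-3* against WT with 13626 genes, the fit recovered 89 of 100 genes changed 2-fold and 59 of 100 changed 1.5-fold, and 8 of 156 calls were false. The simulated libraries were independent, with no change in *sma-6* mutants and no library apart. Both folds exceed the median called member change in *sma-3* mutants, 0.35 on the log2 scale. These rates therefore need not hold for the member calls. Symbols matched for 15796 gene IDs. Named are all members called, the 30 of smallest p where more were called, a set of central genes, and the most abundant member of each role. The members, lists and tests were chosen with earlier results of these data known. A further 4 annotated genes that fit the naming rule were not analysed here.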

Additional observations from a re-analysis of the deposited data

Results flagged for a closer look

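In 11 of 159 groups of 5 libraries examined, over 53 genes, 1 library lay apart from the other 4 by Dixon's criterion. This is 6.918% of the groups, and chance flags about 1 in 20. Wild-type replicate 5 was low in 3 genes. Its *daf-22* level was 182 CPM, against 212 to 223 CPM in the other WT libraries. Its *kat-1* level was 196 CPM, against 232 to 241 CPM, and its *fil-1* level was 1.76 CPM, against 4.03 to 4.68 CPM. Elsewhere in WT, *acdh-7* was at 166 CPM in replicate 4, against 116 to 129.6 CPM, and *lips-17* was at 31.7 CPM in replicate 3, against 23.9 to 25.8 CPM.

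In *sma-6* mutants, *lips-11* was at 56.3 CPM in replicate 1, against 13.8 to 21.4 CPM in the others, and *cpt-1* was at 359 CPM in replicate 4, against 179 to 223 CPM. In *sma-3* mutants, *acs-2* was at 59.2 CPM in replicate 5, against 11.4 to 19.1 CPM. There *acs-16* was at 45.4 CPM in replicate 4, against 41.7 to 42.1 CPM, and *ech-6* was at 801 CPM in the same library, against 937 to 959 CPM. *acdh-11* was at 64.9 CPM in *sma-3* replicate 2, against 59.4 to 60.5 CPM.

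The effect of the mutation on *acdh-12* differed between the mutants. Its log2 fold change against WT was 0.24 in *sma-6* mutants and -0.25 in *sma-3* mutants, and the difference of 0.49 passed the edgeR test between the mutants.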

How the results depend on the processing

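No call among the members changed direction under any alternative. Of the members called, 6 of 8 in *sma-6* mutants, 7 of 21 in *sma-3* mutants and 12 of 32 between the mutants were called under every setting run. Scaling by library totals alone gave 13 members called in *sma-3* mutants, 9 of them lower; the cause was not tested. Over the fits that left out 1 library each, 7 to 10 members were called in *sma-6* mutants (2 to 5 higher, 4 to 6 lower; 613 to 963 of all genes). In *sma-3* mutants 10 to 30 were called (1 to 8 higher, 9 to 22 lower; 1156 to 3069 of all genes), and between the mutants 26 to 36 (17 to 24 higher, 7 to 12 lower; 2450 to 3654 of all genes).

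Nothing in the labels says whether libraries with the same replicate number were prepared together. Correlations of their deviations from the genotype means lay between -0.12 and 0.13. Pairs with different numbers were not compared, so these values cannot decide it. With a replicate block, in the 13 libraries whose number recurs, 522 of all genes were called in *sma-6* mutants. In *sma-3* mutants the replicate block gave 11 members, 9 of them lower, and 806 of all genes. The same 13 libraries with no block gave 9 members there, 1 higher and 8 lower, and 1004 of all genes. Between the mutants the replicate block gave 15 members, 9 higher and 6 lower, and 1075 of all genes, and the same 13 libraries with no block gave 24 members, 17 higher and 7 lower, and 1905 of all genes. The block kept 6 of the 8 member calls in *sma-6* mutants, 10 of 21 in *sma-3* mutants and 13 of 32 between the mutants. Lost calls included *acs-7* in *sma-3* mutants. Between the mutants they included *daf-22*, *maoc-1*, *acdh-1*, *acdh-7*, *acdh-11*, *acdh-13*, *acs-14* and *acs-20*. Members with few counts, such as *lipl-3*, were measured with the least precision.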
